A study of Mus musculus with 2 samples.

Results

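Dendritic cells of B16F10 melanoma tumours were taken as the cells in which at least 2 of 11 dendritic genes had a UMI, and 64 of the 7418 cells that passed the cell filters met this rule, 55 of 3861 in the WT library and 9 of 3557 in the KO library. The values that chose these cells were the UMIs of Flt3, Zbtb46, Xcr1, Clec9a, Cd209a, Ccr7, Siglech, Ccr9, Cox6a2, Cd209d and Klk1, so the levels of these genes in the chosen cells are given as a description only. The rule also asked for 200 to 5000 detected genes, at most 7.5% mitochondrial UMIs, under 0.5% of UMIs from the pigment genes Pmel, Dct, Mlana and Tyrp1, and a UMI of at most 1 of the complement genes C1qa, C1qb and C1qc, which mark macrophages. A UMI is a unique molecular identifier, which stands for 1 captured transcript molecule.

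Single-cell RNA sequencing of small subcutaneous B16F10 tumours, grown from a mouse melanoma cell line, compared hosts that carry or lack the transcription factor ATF4. The WT library came from Atf4 WT/WT hosts and the KO library from Atf4 Δ/Δ hosts. Per the study's methods, all hosts were C57BL/6 mice carrying the tamoxifen-inducible Cre CreERT2 at Rosa26 and all received tamoxifen, which in the Atf4 Δ/Δ hosts is meant to remove floxed exons 2 and 3 of Atf4 throughout the body, and which the study describes as nearly complete in the organs it assayed. The injected melanoma cells keep their own Atf4 in both groups. Per the labels the hosts were 11 weeks old and both libraries pooled male and female animals. Each library held 2 pooled tumours whose cells cannot be assigned to a mouse. Since each genotype was 1 library, the genotypes could not be tested against each other and no p-value is given. All intervals given are exact 95% intervals and cover counting error only, not the spread between mice or, for sums of UMIs, between cells.

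Dendritic cells take up antigen and present it to T cells. The conventional type 1 cells (cDC1), which carry Xcr1 and Clec9a, are known for presenting antigen to CD8 T cells, and type 2 cells (cDC2) for presenting to CD4 T cells. Dendritic cells that have taken up antigen switch on the chemokine receptor Ccr7 and travel to lymph nodes, and plasmacytoid dendritic cells are specialised producers of type I interferon.

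The libraries held 38417113 UMIs (WT) and 38290024 UMIs (KO), and the kept cells had a median of 3920 and 6279 UMIs. Dendritic cells were shallower than this, with a median of 1426 UMIs (614 to 4996) in WT and 917 UMIs (598 to 17253) in KO. The libraries shared 10 cell barcodes, of which 0 were dendritic cells. Scrublet, a doublet caller, marked 96 WT and 47 KO cells and 0 of the dendritic cells. The WT library went against its label in 1 respect. Its 847 cells with at least 2 C1q genes held 0 UMIs of the Y-linked genes Ddx3y, Eif2s3y, Kdm5d and Uty, while 614 held Xist, which is made from the inactive X chromosome. In KO, 111 of 709 such cells held a Y-linked UMI and 79 held Xist. Among the dendritic cells, 35 of 55 in WT and 0 of 9 in KO held Xist, so the sex of the hosts and their genotype cannot be told apart in these cells.

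Dendritic cells made up a smaller share of the KO library. They were 1.42% of kept WT cells (1.07 to 1.85) and 0.253% of kept KO cells (0.116 to 0.480), a log2 KO/WT ratio of -2.49 (-3.70 to -1.46). Of the kept cells under the pigment limit alone, which leaves out most melanoma cells, they were 2.69% of 2043 in WT and 0.513% of 1755 in KO, a log2 ratio of -2.39 (-3.59 to -1.36). A smaller share can come from fewer cells of the type or from less RNA per cell, since a cell with fewer UMIs shows fewer of the 11 genes, and these cannot be told apart from the share alone.

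Every class with a value was lower in KO, but only the plasmacytoid and Ccr7 classes held more than 6 WT cells. A cell was called plasmacytoid if it held at least 2 of Siglech, Ccr9, Cox6a2, Cd209d and Klk1 and more of these than of Xcr1, Clec9a, Cd209a and Ccr7. Of the others, a cell with Ccr7 was put in the Ccr7 class, a cell with Xcr1 or Clec9a but no Cd209a in cDC1, and a cell with Cd209a but neither Xcr1 nor Clec9a in cDC2. There were 19 plasmacytoid cells in WT and 2 in KO, or 0.492% (0.297 to 0.767) and 0.0562% (0.00681 to 0.203) of kept cells. Their log2 KO/WT ratio was -3.13 (-6.28 to -1.08). It was -1.71 (-3.31 to -0.35), with 21 and 6 cells, when the mitochondrial limit was raised to 15%, and -2.20 (-4.21 to -0.63), with 20 and 4 cells, when the pigment limit was raised to 1%.

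The Ccr7 class held 24 cells in WT and 4 in KO, or 0.622% (0.399 to 0.923) and 0.112% (0.0306 to 0.288) of kept cells, a log2 ratio of -2.47 (-4.45 to -0.93). By the split on MHC class II genes described below, 20 WT and 2 KO cells of the class were high and 4 and 2 were low. The lower KO count thus lay mostly in the high cells, and the low ones were too few to compare. The cDC1 class held 6 cells in WT and 0 of 3557 in KO, which allows a share of up to 0.0843%. With KO set at the 3 counts of that limit the log2 ratio was -0.88. The exact interval of the ratio reached up to -0.12, and up to 0.24 with 5 WT cells under a pigment limit of 0.2%. The cDC2 class held 5 cells in WT and 1 in KO, and the interval of its log2 ratio of -2.20 spanned 0 (-7.77 to 0.96), so a difference was not detectable at this depth. The remaining cells, 1 in WT and 2 in KO, were in no class.

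**Figure D1:**
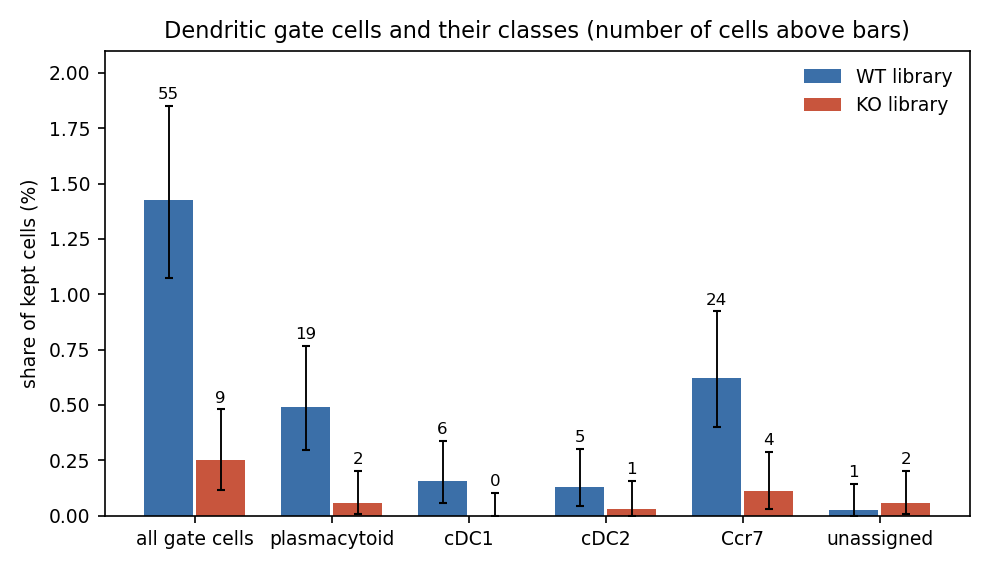
Share of kept cells (%, vertical axis) of all dendritic gate cells and of each class in the WT and KO libraries. Bars are the share in 1 library, error bars exact 95% counting intervals and the numbers above the bars are cells. The bar of all gate cells stands at 1.42% in WT and 0.253% in KO, and the KO bar of cDC1 is at 0.

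The make-up of the dendritic cells could not be told apart between the libraries, because the KO library held too few. Plasmacytoid cells were 34.5% (22.2 to 48.6) of the WT and 22.2% (2.81 to 60.01) of the KO dendritic cells. The Ccr7 class was 43.6% (30.3 to 57.7) in WT and 44.4% (13.7 to 78.8) in KO.

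The lower share was not shared to the same extent by the other myeloid cells. The C1q cells, under the pigment limit and with fewer than 2 genes of the rule, were 21.9% of kept cells in WT and 19.9% in KO. Their log2 ratio was -0.14 (-0.28 to 0.01). Monocyte cells had the same limits on pigment and on genes of the rule, and at most 1 C1q gene. They held at least 2 of Ly6c2, Chil3 and Ms4a4c, genes of inflammatory monocytes. They were 5.05% in WT and 3.04% in KO, a log2 ratio of -0.73 (-1.09 to -0.39). The difference itself was measured by setting the dendritic cells against each of these. Dendritic cells were 6.10% of the dendritic and C1q cells together in WT and 1.25% in KO, a log2 ratio of -2.28, and 22.0% (17.0 to 27.7) against 7.69% (3.58 to 14.1) of the dendritic and monocyte cells together, a log2 ratio of -1.52 (-2.72 to -0.49).

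Depth affects a rule that counts genes with a UMI. The median over all kept cells was higher in KO, at 6279 against 3920 UMIs in WT. Within groups KO was slightly lower, at 2331 against 2431 UMIs in C1q cells and 1048 against 1120 in monocyte cells. Among low-pigment cells of 1000 to 2000 UMIs, 30 of 795 in WT and 2 of 518 in KO were dendritic, a log2 ratio of -3.29 (-6.40 to -1.31). Among those of 2000 to 5000 UMIs these were 13 of 768 and 1 of 643, a log2 ratio of -3.44 (-8.85 to -0.71). Below 1000 UMIs the counts were 12 of 317 and 5 of 278, and the interval of that log2 ratio of -1.07 spanned 0 (-2.93 to 0.53). The lower KO share was thus seen in the middle ranges of depth, and below 1000 UMIs the libraries were not separated. When each cell was thinned to 1000 UMIs, with 390 WT and 348 KO cells left out as shallower, 27 WT and 2 KO cells still met the rule, a log2 ratio of -3.64 (-6.76 to -1.65).

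**Figure D2:**
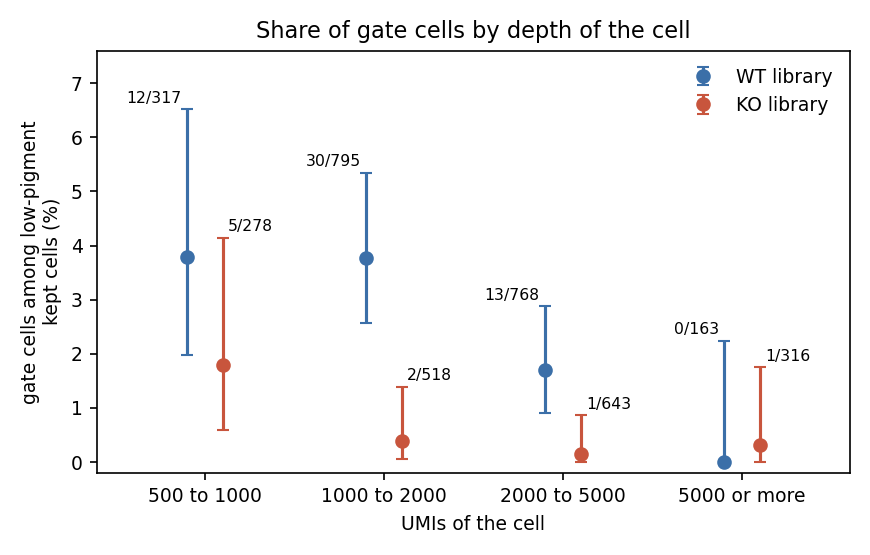
Share of dendritic gate cells among the kept low-pigment cells (%, vertical axis) in 4 ranges of UMIs per cell (horizontal axis). Points are the share in 1 library, bars exact 95% counting intervals, and the labels give gate cells over all cells in the range. From 1000 to 5000 UMIs the WT points, at 3.77% and 1.69%, lie above the KO points, at 0.386% and 0.156%.

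Summed over all barcodes, the 11 genes did not all run the same way. Flt3, the growth factor receptor of dendritic cells and their progenitors, had 36 UMIs in WT and 7 in KO (log2 ratio -2.36, -3.77 to -1.17). The cDC1 genes Xcr1, a chemokine receptor, and Clec9a, a receptor for dead cells, had 22 and 3 UMIs and 12 and 1 UMIs. Cd209a, a lectin of cDC2 and monocyte-derived cells, was at 159 and 12 UMIs (-3.72, -4.71 to -2.88). These were the genes furthest below WT.

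Ccr7 had 168 UMIs in WT and 64 in KO (-1.39, -1.83 to -0.96). Of the plasmacytoid genes, Siglech, a sialic acid-binding receptor, had 38 and 17 UMIs (-1.16, -2.07 to -0.30), and Ccr9, a chemokine receptor, had 48 and 17 (-1.49, -2.38 to -0.67). Klk1 had 26 and 13 (-0.995, -2.08 to 0.02). The interval of Cd209a lay below those of these 3 genes, while those of Xcr1 and Clec9a overlapped them.

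Zbtb46, a transcription factor of conventional dendritic cells, was level at 88 UMIs in each library. Cox6a2, a subunit of cytochrome c oxidase, and Cd209d, another lectin, were higher in KO, at 41 and 147 UMIs (1.85, 1.34 to 2.38) and 59 and 183 UMIs (1.64, 1.21 to 2.09). These 3 genes were also seen in other cells. Zbtb46 had a UMI in 1.93% of WT and 2.22% of KO cells at or over the pigment limit, Cox6a2 in 0.220% and 2.66% of these, and Cd209d in 1.77% of WT and 4.94% of KO C1q cells. Siglech, Ccr9 and Klk1 had a UMI in 0 C1q cells of either library, but C1q cells were limited to fewer than 2 genes of the rule. At or over the pigment limit they were seen in 2, 1 and 2 WT cells and in 2, 3 and 1 KO cells. Among dendritic cells these counts were 12, 16 and 9 in WT and 2, 1 and 2 in KO. Without Zbtb46, Cox6a2 and Cd209d the rule left 45 WT and 4 KO cells, a log2 ratio of -3.37 (-5.31 to -1.92). This setting was chosen after seeing the data.

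**Figure D3:**
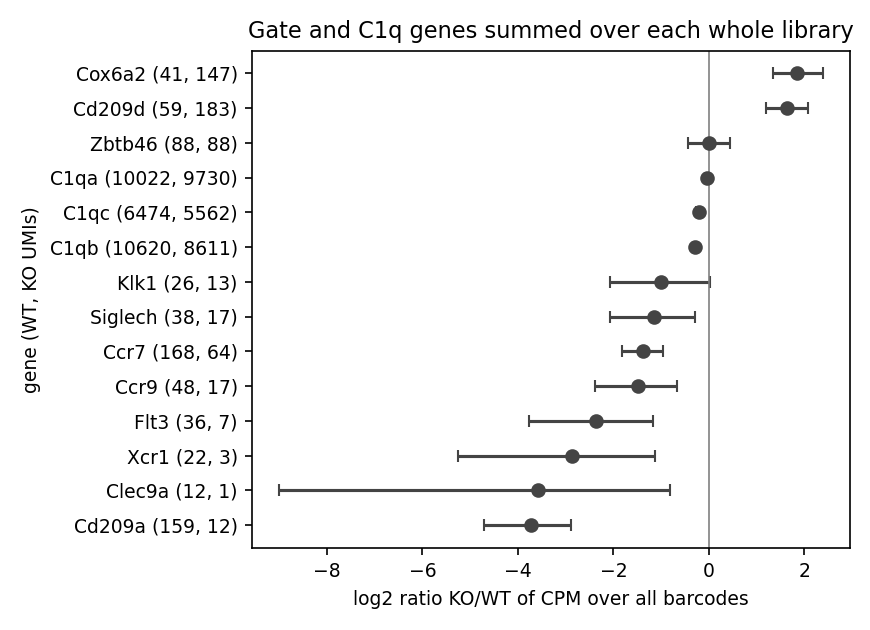
Log2 KO/WT ratio of CPM (horizontal axis) of the 11 genes of the rule and of C1qa, C1qb and C1qc, summed over all barcodes of each library, with WT and KO UMIs in brackets. Points are the ratio and bars exact 95% counting intervals. Cd209a is lowest at -3.72, the C1q genes lie near 0, and Cox6a2 is highest at 1.85.

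Most dendritic cells stood just inside the rule. Exactly 2 of the genes were seen in 38 of 55 WT and 7 of 9 KO cells, 15 and 1 cells held 3 of them, and 2 and 1 cells held 4 or 5. Just outside, 126 WT and 72 KO cells that met all other limits held exactly 1 of the genes. The gene seen in these was most often Cd209a in WT, in 45 cells, and Cox6a2 in KO, in 31 cells. A further 4 WT and 3 KO cells met the rule except for the pigment limit, with median depths of 9088 and 13146 UMIs, and 5 and 3 cells with at least 2 of the genes held all 3 C1q genes.

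The genes that came together were of the same class in some pairs and of different classes in others. Cd209a and Ccr7 were seen in the same cell in 13 WT cells and 1 KO cell, Flt3 with Ccr7 in 8 and 1 cells, Ccr9 with Klk1 in 8 and 1 cells, and Siglech with Ccr9 in 7 and 1 cells. The rule chose cells by these genes, so the pairs are a description.

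The label was checked with genes that the rule did not use. Plasmacytoid cells and the other classes differed in their summed levels of a list of 26 plasmacytoid genes and of the MHC class II list, none of whose members is in the rule, but single cells overlapped on both. On the plasmacytoid list the lowest WT plasmacytoid cell, at 0.280%, lay below the highest Ccr7 cell, at 0.557%. The plasmacytoid list took 1.59% (1.43 to 1.77) of the UMIs of WT plasmacytoid cells, 0.152% of cDC1, 0.0519% of cDC2 and 0.128% of Ccr7 cells. In C1q cells of WT it took 0.127%, and in the monocyte cells, which share Plac8 and Ly6c2, 0.550% in WT (up to 2.56% in a cell) and 0.362% in KO. The plasmacytoid cells thus overlapped the monocyte cells on this list. The 2 KO plasmacytoid cells were at 1.09% and 3.18%, beside a range of 0.280% to 3.04% in the WT cells.

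**Figure D4:**
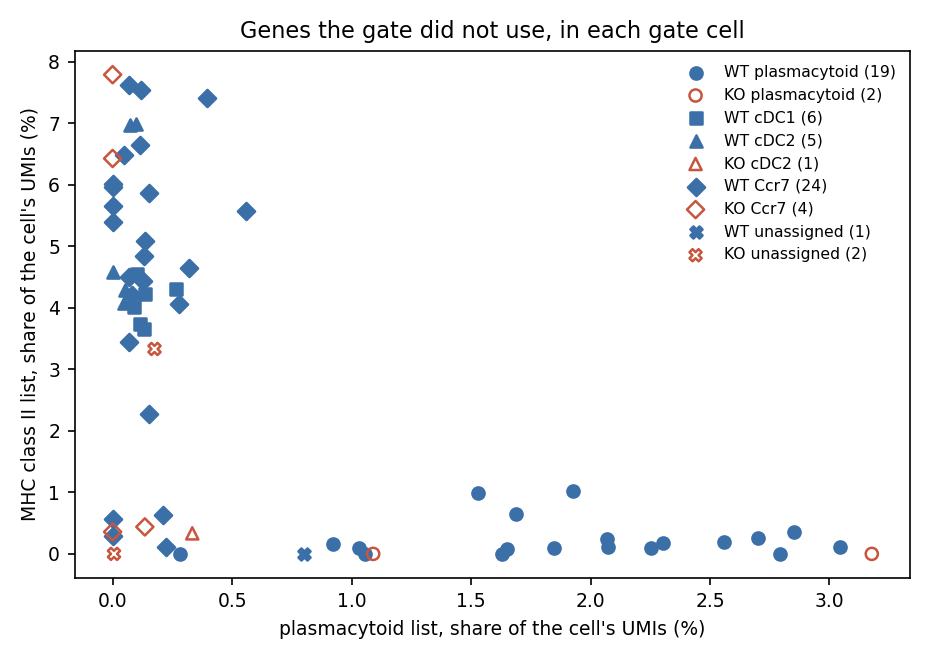
Each dendritic gate cell by the share of its UMIs from the plasmacytoid list (%, horizontal axis) and from the MHC class II list (%, vertical axis). Filled blue symbols are WT and open red symbols KO cells, with shapes for the classes. Plasmacytoid cells lie along the horizontal axis at up to 1.03% MHC class II, while cDC1 and most Ccr7 cells lie along the vertical axis, and 6 Ccr7 cells lie near the origin.

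In the WT plasmacytoid cells Plac8 had 63 UMIs in 18 of 19 cells and Bst2, a membrane protein that interferon also induces, had 55 UMIs in 17 cells. Irf8, a transcription factor that cDC1 also need, had 29 UMIs in 16 cells, and Tcf4, the transcription factor that sets plasmacytoid identity, had 33 UMIs in 12 cells. Both KO plasmacytoid cells held Tcf4, Bst2 and Plac8. These 3 genes were thus seen in the KO cells at depths of only 917 and 598 UMIs.

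The genes leading the WT plasmacytoid cells over the other WT dendritic cells, of 114 genes with at least 30 UMIs, included Ly6c2 at 42 UMIs (11 of 19 cells) against 2 UMIs, Ctsl, a lysosomal protease, at 39 UMIs (16 cells) against 5, and Bst2 at 2489 against 207 CPM (UMIs of the gene per 1000000 UMIs of the summed cells). Of the 114, 13 genes (11.4%) were at least 2-fold higher. The collagen and matrix genes Col3a1, Sparc and Col1a2 also led, but 1 cell of 4996 UMIs, the deepest WT plasmacytoid cell, held all 54 UMIs of Col3a1 in the class. Without it the 6 leading genes were Ly6c2, Ctsl, Bst2, Tcf4, Plac8 and Ly6e, and Tcf4 stood at 1930 against 128 CPM. That cell went against its label, with 0 UMIs of Tcf4, Bst2, Ptprc and MHC class II genes, 0.280% of UMIs from the plasmacytoid list and 3.64% from the fibroblast list. Without it 18 WT plasmacytoid cells were left, and the log2 KO/WT ratio of the class was -3.05 (-6.20 to -0.99). Leaving out that cell was chosen after seeing the data.

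Some genes of lymphocytes belong to the known plasmacytoid pattern and were seen here. Ighm, an immunoglobulin heavy chain, had 15 UMIs in 11 of 19 WT plasmacytoid cells, and Iglc3, a light chain, 14 UMIs in 9. The B cell genes Cd79a and Ms4a1 and the T cell genes Cd3d, Cd3e, Cd3g and Trac had 0 UMIs in all 64 dendritic cells. The Toll-like receptor genes Tlr7 and Tlr9, through which plasmacytoid cells sense nucleic acids, had 0 UMIs in the WT plasmacytoid cells.

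MHC class II genes were high in most cells of the remaining classes and low in the plasmacytoid cells. The list took 4.10% (3.77 to 4.45) of the UMIs of WT cDC1, 5.27% (4.82 to 5.75) of cDC2 and 4.60% (4.38 to 4.82) of Ccr7 cells, but 0.199% (0.145 to 0.267) of plasmacytoid cells. In 4 WT and 2 KO Ccr7 cells and in the KO cDC2 cell, at 0.333%, it lay within the range of the plasmacytoid cells, which reached 1.03%. In WT C1q cells it took 0.351%. H2-Ab1, a class II beta chain, had a UMI in 6 of 6 cDC1, 5 of 5 cDC2 and 21 of 24 Ccr7 cells, but in 1 of 19 plasmacytoid cells of WT. Cd74, the class II invariant chain, was the most abundant member, with 1177 UMIs in 44 of the 55 WT cells and 97 UMIs in 5 of the 9 KO cells.

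The 6 WT cDC1 cells had close MHC class II shares, from 3.65% to 4.55%, but differed on other lists, with cell cycle genes at 0.943% and 0.485% in 2 cells and at most 0.0518% in the others. They were the deepest class with a median of 2246 UMIs. Cst3, the protease inhibitor cystatin C, led their genes with 338 UMIs in 6 of 6 cells, at 24431 against 6722 CPM in the other WT dendritic cells (log2 1.86, 1.66 to 2.07). With Tmsb10, which encodes a thymosin, it was 1 of 2 genes of 93 (2.15%) at least 2-fold higher. Irf8 was seen in 5 of the 6 cells. Rab7b, a trafficking GTPase, had 8 UMIs in 6 of 6 cells and Ppt1, a lysosomal thioesterase, 8 UMIs in 5, and neither had a UMI in the plasmacytoid or cDC2 cells. These last genes belong to the cDC1 list but were named after their values were seen. That list took 0.398% (0.299 to 0.517) of the UMIs of WT cDC1, 0.149% of plasmacytoid, 0.114% of cDC2 and 0.146% of Ccr7 cells. It took 0.0955% in WT C1q cells, but 0.339% (0.207 to 0.524) in the KO Ccr7 cells. Single WT cells overlapped on it. The lowest cDC1 cell, at 0.259%, lay below the highest plasmacytoid cell, at 0.434%, and the highest Ccr7 cell, at 0.419%.

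Of the 16 genes of the cDC2 list, 7 had a UMI in the 5 WT cDC2 cells. The list took 0.363% (0.253 to 0.505) of their UMIs, and 0.194% (0.152 to 0.243) of those of WT Ccr7 cells. It took 0.131% in plasmacytoid, 0.0578% in cDC1 and 0.116% in C1q cells of WT. Single WT cells overlapped, with the lowest cDC2 cell at 0.0938% and the highest Ccr7 cell at 0.589%. Mgl2 and Clec10a, which are C-type lectins, had 15 UMIs in 3 cells and 9 UMIs in 4 cells. Il1b, an inflammatory cytokine, led with 42 UMIs in 5 of 5 cells, at 4359 against 1730 CPM (log2 1.33, 0.80 to 1.85), and was the 1 gene of 69 (1.45%) at least 2-fold higher. H2-Eb1, Cd74 and H2-Aa followed. The 1 KO cell in this class, of 900 UMIs, held Cd209a and Cd209d but 3 UMIs of all MHC class II genes and 0 of Cd74. The MHC class II UMIs of the WT cDC2 cells ran from 80 to 145, so this KO cell went against its label and is called cDC2 by the rule alone.

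The Ccr7 class held cells of 2 kinds. In 20 of 24 WT cells MHC class II genes took 2.28% to 7.62% of UMIs, and in the other 4 they took 0.111% to 0.628%. The split at 1% was set after the values were seen. The 4 cells low in MHC class II had 1.75% to 6.21% of their UMIs from a list of 25 genes of mature Ccr7 cells, which does not hold Ccr7, against a median of 0.270% (0.0682 to 1.96) in the other 20. The kinds overlapped on that list, in KO too, where a cell high in MHC class II was at 2.21% and a low one at 2.02%.

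Ccl5, a chemokine that attracts T cells, lay mostly in the cells low in MHC class II. It had 133 UMIs in 4 of 4 of these, 89 of them in 1 cell, and 2 UMIs in 1 of the 20 others. In KO the class held 2 cells of each kind. The 2 low cells, at 0.438% and 0.358% MHC class II, held 22 and 31 UMIs of Ccl5 and 1 UMI each of Fscn1, an actin-bundling protein of mature dendritic cells. The 2 high cells, at 7.79% and 6.43%, held 0 of both. Cd209a was seen in 13 of the 20 WT cells high in MHC class II and in 0 of the 4 low ones. Ccr7 itself had a median of 1 UMI in the high WT cells and 2.5 UMIs in the low ones.

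Of 184 genes with at least 30 UMIs in the WT Ccr7 class, 17 (9.24%) were at least 2-fold higher than in the other WT dendritic cells. The leading ones were Ccl5, with 135 UMIs in 5 of 24 cells against 0, then Fabp5, a fatty acid-binding protein, with 43 UMIs in 12 cells against 6 (log2 3.13, 1.89 to 4.65), and Bcl2a1b, a survival factor, with 49 UMIs in 18 cells against 10 (2.58, 1.58 to 3.72). S100a4, a calcium-binding protein (70 UMIs in 17 cells), Gadd45b, a stress-induced gene (33 in 15), and Cd83, a maturation marker (32 in 18), followed. Marcksl1 and Traf1, a signalling adaptor, of the mature list had 29 UMIs in 14 cells and 21 UMIs in 12.

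**Figure D5:**
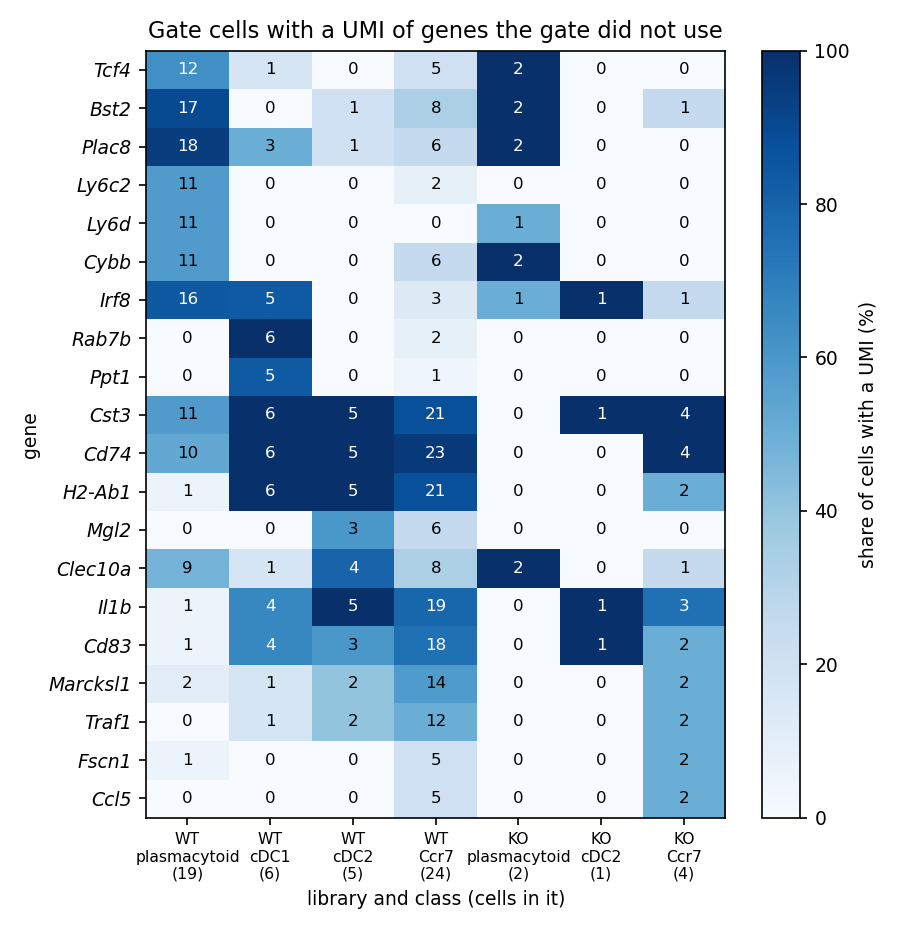
Cells with a UMI (number in each field, colour as share of the cells in %) for 20 genes the rule did not use (vertical axis) in each library and class (horizontal axis, cells in brackets). Bst2 was seen in 17 of 19 WT plasmacytoid cells, Rab7b in 6 of 6 WT cDC1 cells, and Ccl5 in 5 WT and 2 KO Ccr7 cells.

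Some dendritic cells went against their label. Ptprc, the pan-leukocyte marker CD45, had 34 UMIs in 24 of 55 WT cells and 0 in the 9 KO cells, 8 of which hold 9450 UMIs together, too few to read from this that it is absent. The 1 KO cell of 17253 UMIs, chosen by Zbtb46 and Cox6a2 and in no class, held 64.6% of the 26703 UMIs of the KO dendritic cells. It held 0 UMIs of MHC class II genes and of Cd74 but 12 of Gpnmb, a glycoprotein of melanocytes and macrophages, and 1 of Sox10, a melanocyte transcription factor, and its pigment share of 0.232% was under the limit. The other KO cell in no class, of 1141 UMIs, held Zbtb46 and Cd209d and 38 UMIs of MHC class II genes.

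Markers of other cell types were summed over the dendritic cells as a description. The macrophage list holds the C1q genes and the melanoma list the pigment genes, which the rule limited. The monocyte list holds Ly6c2, Chil3 and Ms4a4c, which chose the monocyte cells. These contrasts were thus partly set by the choice of cells. Of 13 macrophage genes 11 had a UMI in the WT dendritic cells, summing to 0.0684% of UMIs, and 2 in the KO cells, summing to 0.0374%, against 2.36% and 2.72% in C1q cells. The melanoma list summed to 0.121% in WT and 0.262% in KO, or 0.138% without the cell of 17253 UMIs, beside 0.140% and 0.125% in C1q cells. The T and NK list summed to 0.0130% in WT and 0 in KO. Of 10 monocyte genes, which include Plac8 and Ly6c2 of the plasmacytoid list and S100a4, 8 had a UMI in WT and 4 in KO. They summed to 0.303% (47 of 55 cells) and 0.0899% (7 of 9 cells), against 3.08% and 2.75% in the monocyte cells, and to 0.243% in KO without the cell of 17253 UMIs. Their part in the results was not tested.

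Atf4 (ENSMUSG00000042406, chromosome 15, 80255184 to 80257541, GRCm38, protein coding) had 23 UMIs in 18 of 55 WT dendritic cells, 271 CPM (172 to 407), and 4 UMIs in 2 of 9 KO cells, 150 CPM (40.8 to 384). The log2 ratio of -0.86 (-2.85 to 0.69) had an interval that spanned 0. Of the 4 KO UMIs 3 lay in the cell of 17253 UMIs, and without it 1 UMI was left, at 106 CPM (log2 -1.36, -6.72 to 1.26). The deletion was thus not detectable at this depth in dendritic cells, while C1q cells went from 183 to 50.9 CPM (-1.85, -2.19 to -1.52) and the monocyte cells from 177 to 24.6 CPM (-2.84, -5.18 to -1.19). By pigment UMIs, free RNA was estimated at 9.55% of the WT and 22.7% of the KO dendritic UMIs, which stands for 1.13 Atf4 UMIs in KO. The cell of 17253 UMIs held 40 of the 51 pigment UMIs behind the KO estimate. Without that cell the KO estimate was 13.8% and 0.243 Atf4 UMIs. The rule had already limited the pigment share of each dendritic cell, so all of these estimates were partly set by the choice of cells. They also cannot tell free RNA from pigment RNA made by the cell itself.

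Within classes Atf4 had 8 UMIs in 6 of 19 plasmacytoid, 6 UMIs in 4 of 6 cDC1, 1 UMI in 1 of 5 cDC2 and 8 UMIs in 7 of 24 Ccr7 cells of WT. In KO it had 0 UMIs in both plasmacytoid cells and 1 UMI in the 4 Ccr7 cells. A list of 40 genes of the integrated stress response and ATF4 targets took 0.189% (0.161 to 0.220) of UMIs in WT and 0.464% (0.386 to 0.554) in KO, but 0.212% (0.129 to 0.327) in KO without the cell of 17253 UMIs. Slc3a2, an amino acid transporter subunit and the most abundant member in WT, had 28 UMIs in 22 WT cells and 13 in 4 KO cells, of which 3 lay outside that cell.

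Gene levels in all dendritic cells compared between the libraries rested on few KO cells. Of 302 genes with at least 50 UMIs, 66 (21.9%) were at least 2-fold lower in KO and 23 (7.62%) at least 2-fold higher. Without the cell of 17253 UMIs 255 genes were left, of which 32 were lower and 9 higher, and the intervals of 21 of these 41 lay off 0. With that cell included, the 5 genes lowest in KO were Xist, Fxyd5, Ly6e, mt-Nd3 and Psmb8, and Xist moves with the sex of the hosts. Fxyd5, an ion transport regulator, had 88 UMIs in 36 WT cells and 4 in 3 KO cells (log2 -2.79, -4.70 to -1.39), and stood at -1.29 without that cell, which held 0 of its UMIs. Ly6e, an interferon-induced membrane protein, had 64 UMIs in 32 WT cells and 0 in KO.

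The 6 of 11 MHC class II genes with at least 50 UMIs were each at least 2-fold lower in KO, with a median log2 ratio of -2.08 beside -0.27 over all 302 genes. Without the cell of 17253 UMIs 2 of these 6 were still 2-fold lower, 1 was above WT, and their median was -0.58 beside -0.15 over the 255 genes left. The list took 3.39% of WT and 0.790% of KO dendritic UMIs, and 2.23% (1.94 to 2.56) of KO UMIs without the cell of 17253 UMIs. In KO 113 of the 211 UMIs of the list lay in 1 cell, a spread that the interval does not cover. The 3 of 24 interferon-stimulated genes with at least 50 UMIs, Bst2, Ly6e and Ifi27l2a, were also at least 2-fold lower, 2 of them without that cell, and that list took 0.303% (0.267 to 0.343) in WT and 0.201% (0.121 to 0.314) in KO without that cell. These sums mix classes. Of the 68 WT UMIs of Bst2, 55 lay in plasmacytoid cells. The list took 0.579% (0.483 to 0.689) in WT and 0.330% (0.107 to 0.770) in KO plasmacytoid cells. In Ccr7 cells, where KO was not lower, it took 0.201% (0.159 to 0.252) in WT and 0.221% (0.117 to 0.377) in KO. In C1q cells it took 0.480% in WT and 0.575% in KO.

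Hypoxia and glycolysis genes ran the other way. The 9 of 20 members with at least 50 UMIs were each at least 2-fold higher in KO, among them the glycolytic enzymes Gapdh at 116 and 267 UMIs and Aldoa at 30 and 93 UMIs, and the oxidoreductase Ero1l at 3 and 83 UMIs. Without the cell of 17253 UMIs 3 of the 9, Aldoa, Mif and Ero1l, were still 2-fold higher, and Tpi1 was at -0.11. The list took 0.532% (0.484 to 0.583) of WT and 3.13% (2.92 to 3.35) of KO UMIs, and 0.921% (0.737 to 1.14) without the cell of 17253 UMIs. Without that cell Ero1l was at 4 UMIs in KO and Gapdh at 25 (log2 0.95, 0.27 to 1.58). With Ero1l, the 5 genes highest in KO were Chchd10, Higd1a, Aldoa and Bsg. This order rested on that cell, without which Higd1a was at 0.50 and Bsg at 0.84 on the log2 scale. In C1q cells the list took 0.868% in WT and 1.15% in KO.

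Compared with the C1q cells of the same library, the dendritic cells were led in both libraries by Ccl5, Ifitm1, Napsa, Lsp1 and Cytip. Of the 302 genes, 19 (6.29%) were at least 2-fold higher than in C1q cells in both libraries and 12 (3.97%) at least 2-fold lower. These counts, and those against the monocyte cells below, include the KO cell of 17253 UMIs. That cell held 64.6% of the KO dendritic UMIs. Ccl5 stood at 1592 against 37.9 CPM in WT and 1985 against 67.7 CPM in KO, but in 5 and 2 cells only. Napsa, an aspartic protease of antigen processing, stood at 967 against 24.8 CPM in WT and 337 against 23.3 CPM in KO. Lsp1, a leukocyte actin-binding protein, stood at 1144 against 111 CPM and 974 against 79.6 CPM. Cytip, which regulates the adhesion of immune cells, stood at 814 against 62.7 CPM and 300 against 35.2 CPM. Without the cell of 17253 UMIs, KO levels were 5608 CPM for Ccl5, 952 for Napsa, 2751 for Lsp1 and 847 for Cytip. Rel, H2-Eb1, H2-Aa, Sub1 and S100a11 completed the 10 leading genes.

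The genes lower than in C1q cells in both libraries included lysosomal genes. Ctsl stood at 519 against 2157 CPM in WT and 337 against 1721 CPM in KO, and Psap, the precursor of the saposins, at 1498 against 4439 CPM and 487 against 3552 CPM. The pooled WT level of Ctsl covers 1765 CPM in plasmacytoid cells and 79.7 CPM in the other dendritic cells. Without the cell of 17253 UMIs, KO dendritic levels were 212 CPM for Ctsl and 1058 for Psap. The list of 17 lysosome and antigen uptake genes took 0.657% of dendritic and 2.44% of C1q UMIs in WT, and 0.449% and 2.34% in KO. Against the monocyte cells 8 genes (2.65%) were at least 2-fold higher in both libraries and 7 (2.32%) at least 2-fold lower, and Ccl5, Ifitm1, Syngr2 and Cst3 led the higher ones. Cst3 stood at 9612 against 2306 CPM in WT and 3895 against 1470 CPM in KO. The KO dendritic level of Cst3 was 10476 CPM without the cell of 17253 UMIs.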

How the data were processed

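The deposited values are unnormalised UMI counts of each gene in each cell. For these the authors ran Cell Ranger 3.1.0 on the GRCm38 build and Ensembl gene models. The labels and the study's methods name different versions of the 10x 3′ kit. The files list 31053 genes, and the deposited barcodes hold at least 500 UMIs. Positions came from GENCODE vM21, on the same build.

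The members and gene lists were chosen with earlier results of these data known. Cells were chosen by the genes they held, with no clustering. Counts were summed per library and class and scaled to CPM of those cells. No count model or test was used. Sums have exact Poisson intervals, shares Clopper-Pearson intervals and KO/WT ratios conditional binomial intervals. Where a count was 0, the ratio was taken against 3 counts, and in rankings counts under 3 were set to 3. UMIs are molecules, but intervals cover counting error only. The genes named were those of the rule, C1q genes and Atf4, the 4 most abundant and any 2-fold member of each of 27 lists, the 5 highest and 5 lowest KO/WT ratios among genes of 50 UMIs, the 10 highest over C1q cells, and the 6 leading genes per class. The last was applied in WT alone, since KO classes held 0 to 4 cells. The list genes Cxx1b, Amica1, Mx2 and Ifi30 were not found in the files.

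The ratio step was tested on simulated dendritic counts for KO over WT, with 200 of 786 genes changed, where 97.5% of the intervals covered the ratio simulated and 100% of 4-fold changes had the right sign. The simulated UMIs were drawn independently, as the intervals assume, so this checked the computation only. It could not show how the intervals hold where many UMIs lie in 1 cell. Tools were Python 3.11.15, numpy 2.4.6, scipy 1.17.1, pandas 2.3.3 and scanpy 1.11.5, whose Scrublet called doublets as an alternative.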

Additional observations from a re-analysis of the deposited data

Results flagged for a closer look

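Some barcodes over the mitochondrial limit, which above entered only the sums over all barcodes and the 15% setting, also met the other conditions of the rule, and the KO library held more of these than the WT library. There were 4 of 1857 in KO (0.215%, 0.0587 to 0.551) and 3 of 2028 in WT (0.148%, 0.0305 to 0.432). All 7 were plasmacytoid by the rule, with median depths of 926 and 1236 UMIs and median mitochondrial shares of 8.37% and 11.6%. The kept plasmacytoid cells lay closer to the limit than the other classes, with medians of 5.46% in WT and 6.83% in KO, beside 3.15% and 3.04% in the Ccr7 class. The part of the mitochondrial limit in the difference between genotypes was not tested beyond the 15% setting.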

How the results depend on the processing

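No paired analysis was possible because there was only 1 library of each genotype. Of 101 values under alternatives, 94 kept their direction within the counting interval or, for counts of genes, within 1.5 times, 7 moved further and 0 reversed. Some of the 94 were close to fixed in advance. Leaving out doublet calls or cells with T or B cell genes, or lifting the gene limit, left the same dendritic cells. Leaving out 1 cell could not change the classes that did not hold it. The number of genes past 2-fold, 89, was 26 with a pigment limit of 0.2%, 134 with 1%, 11 with at least 3 genes of the rule, 254 with a minimum of 20 UMIs and 32 with 100 UMIs. With settings chosen after seeing the data it was 41 without the KO cell over 5000 UMIs and 27 without Zbtb46, Cox6a2 and Cd209d in the rule, and 87 without the collagen-rich WT plasmacytoid cell. Without these 3 genes the upper bound of the cDC1 ratio was 0.24, with 5 and 0 cells, and the log2 ratio of the Ccr7 class was -3.34, with 22 and 2 cells. With at least 3 genes of the rule the plasmacytoid ratio was -2.47, with 12 and 2 cells. Thinning to 2000 UMIs left 11 WT and 1 KO dendritic cells (-3.47), and 4 and 1 cells of the Ccr7 class, whose interval then reached 1.32. After thinning to 1000 UMIs that class held 15 and 1 cells (-3.79), and 9 and 0 plasmacytoid cells were left. Several settings gave no value because both counts were at most 3 or a KO count of 0 set no bound, among them cDC1 and cDC2 after thinning, Atf4 with at least 3 genes of the rule (10 and 0 UMIs) or without the 3 genes (22 and 0 UMIs), and Atf4 in cells with Xist and no Y-linked UMI (15 and 0 UMIs). The 9 KO cells limit every value.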
